A study of Mus musculus with 6 samples.

Results

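The genes described here were 10 ETS transcription factors, Etv1, Etv4, Etv5, Ets1, Ets2, Elk1, Elk3, Elf3, Ehf and Erf, taken by symbol from the 25239 genes of the count table. All 10 were found, and all 10 passed the filter on low counts. They were measured by bulk RNA-seq in 6 libraries of organoids from 1 genetically modified mouse embryonic stem cell line on the G4 RosaLuc background, named for its parts TRE-Nkx2-1-Pax8 and bTg-NES-BrafV637E-ERT2. In this line doxycycline, given at 1 µg/ml for 5 days, switches on the thyroid factors Nkx2-1 and Pax8, and the bovine thyroglobulin promoter then drives a Braf oncoprotein fused to the ERT2 domain in the cells that become thyroid follicular cells. BrafV637E is the mouse form of the human mutation most often found in papillary thyroid cancer, and the fusion protein becomes active when 4-hydroxytamoxifen (4OHT) binds it. All organoids were enriched for follicles, were kept in the cAMP analogue 8-Br-cAMP and were collected on day 31.

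The cAMP group (2 libraries) received no 4OHT, so its Braf fusion stayed inactive. The 4OHT group (2 libraries) received 1 µM 4OHT for 5 days. The PD+LY group (2 libraries) received 1 µM 4OHT together with 250 nM PD0325901, which inhibits MEK, and 5 µM LY204002, which inhibits PI3K, for 3 days, and the methods of the study describe 4 days of 4OHT before the inhibitors. The inhibitors were given only together, so the part of each cannot be told apart. The total time in 4OHT may differ between the 4OHT and PD+LY groups, and an effect of 4OHT on cells that do not express the transgene cannot be told apart from that of the oncoprotein in these samples. Each library pooled at least 3 wells, and nothing in the labels says that duplicates came from separate differentiations, so p-values measure only the spread between these samples.

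ETS factors bind DNA through a shared domain that reads a GGAA core, and many of them are switched by the RAS-RAF-MEK-ERK kinase cascade. Etv1, Etv4 and Etv5 form the PEA3 subfamily, whose genes are transcribed when ERK is active, partly because ERK relieves the repressor capicua (Cic). Elk1 and Elk3 are ternary complex factors that are phosphorylated by ERK and bind with serum response factor at immediate early genes, Ets1 and Ets2 are activators that ERK phosphorylates, Erf is a repressor that ERK moves out of the nucleus, and Elf3 and Ehf belong to an ETS branch typical of epithelia. In the thyroid, ERK signalling downstream of mutant Braf lowers the differentiation genes, and PEA3 transcripts are commonly read as part of an ERK output signature.

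The libraries held 14898409 to 20637959 counts on genes, so that 1 count was worth 0.0486 to 0.0667 CPM, the unit used here for counts scaled to a common library total. Duplicates differed by more than sampling noise in each group. Markers of thyroid follicular cells were present, with 8 of 8 at 3 or more counts in every library and a summed level of 1103 to 1647 CPM in the cAMP group, 570 to 760 CPM in the 4OHT group and 985 to 1974 CPM in the PD+LY group. Most of that sum was thyroglobulin (Tg), at 514 to 1870 CPM, while Pax8 and Nkx2-1 passed the test in no comparison, with log2 fold changes of 0.38 and -0.21 for 4OHT against cAMP. Other cells remained in the organoids. The 10 pluripotency markers summed to 4015 to 4530 CPM over the 6 libraries with none at 0 and a median marker at 282 to 355 CPM. The 12 mesenchymal markers summed to 1380 to 1520 CPM in the cAMP group, 2473 to 2618 CPM in the 4OHT group and 4241 to 4988 CPM in the PD+LY group. The collagen genes Col1a1, Col1a2 and Col3a1 carried most of this rise. In PD+LY against 4OHT, 3 of the 12 markers rose and 2 fell at least 2-fold with an adjusted p under 0.05. Of all tested genes, 7.26% passed these limits. The part of these cells in the results below was not tested.

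Of the 10 ETS genes, Etv4 and Etv1 fell sharply under the inhibitors, Etv5 moved little, and most of the others kept levels that the test did not separate. Differences were tested with edgeR over 15256 genes, and a gene is said to pass both limits where its Benjamini-Hochberg adjusted p was under 0.05 and its change at least 2-fold. Between the 4OHT and cAMP groups 0 of 10 ETS genes passed both limits by edgeR, where 2.67% of all tested genes did, and also 0 by DESeq2. Of the 10, 3 had an unadjusted p under 0.05, a limit for which the share of all tested genes was not taken, here or below. On the adjusted p alone, 1 was higher, Etv4, and 1 was lower, Etv5, against a background of 4.04% of all tested genes higher and 4.35% lower. Between the PD+LY and 4OHT groups, 2 of 10 passed both limits, Etv4 and Etv1, both lower, against 7.26% of all tested genes, and the same pair passed the adjusted p alone, where 10.7% of all genes were higher and 12.1% lower. Between the PD+LY and cAMP groups, 3 of 10 passed both limits, Etv4, Etv1 and Ehf, all lower, against 9.24%, and 4 passed the adjusted p alone with the addition of Etv5, where 12.1% of all genes were higher and 13.7% lower. The median log2 fold change of the 10 genes was 0.03 in each of the 3 comparisons, beside medians over all tested genes of -0.002, 0.008 and 0.005 in the order given. The change was thus carried by single members. Without the 3 PEA3 genes, the 7 others had medians of 0.05, 0.08 and 0.12. The groups in these comparisons share libraries, so the 3 sets of values are not independent of each other.

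**Figure D1:**
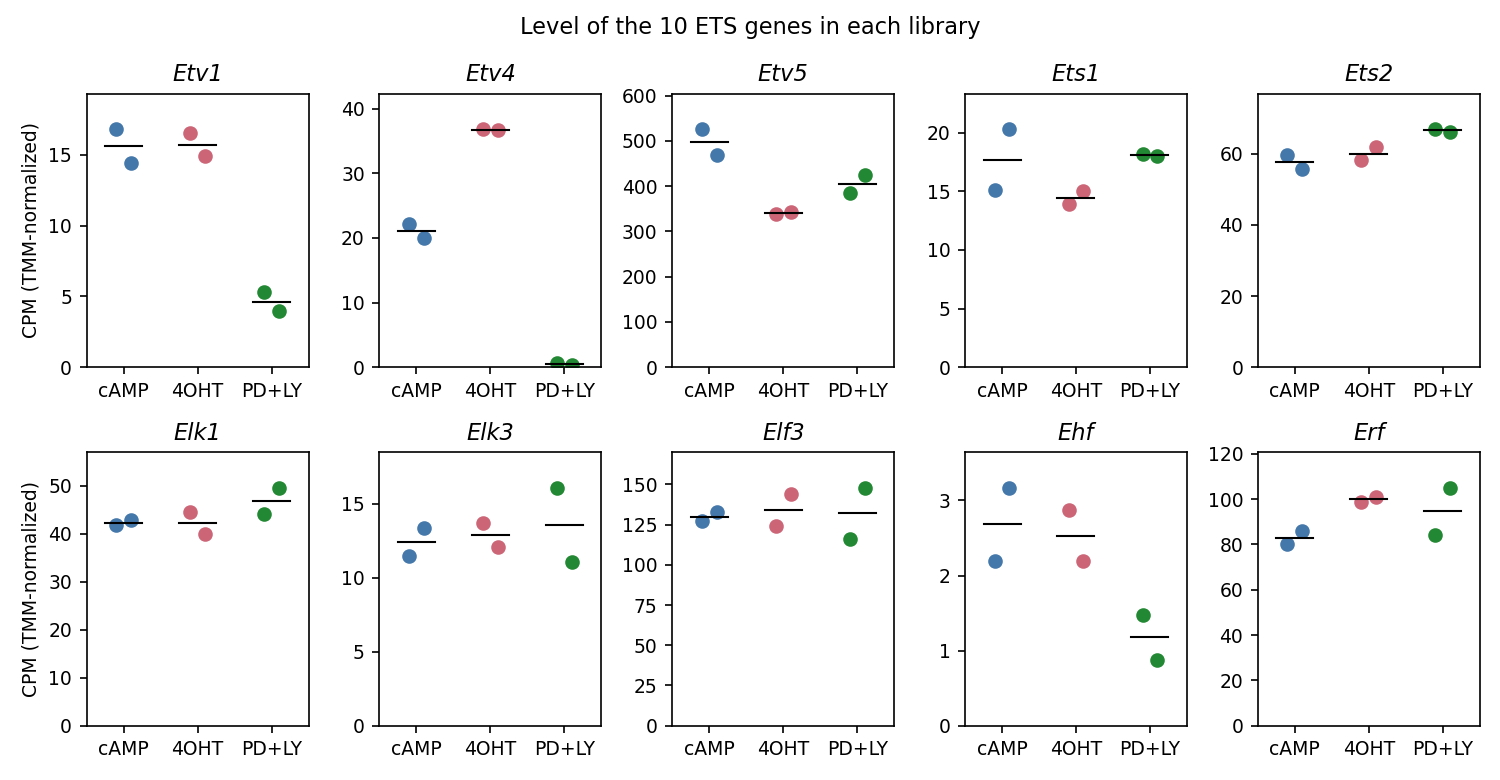
Level of each of the 10 ETS genes in each of the 6 libraries, as TMM-normalized CPM on a linear axis from 0 that differs between panels. Points are libraries, coloured by group, and black lines are group means of 2 libraries. Etv4 and Etv1 sit near the bottom of their panels in the PD+LY libraries, while Etv5 is lowest in the 4OHT libraries.

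**Figure D2:**
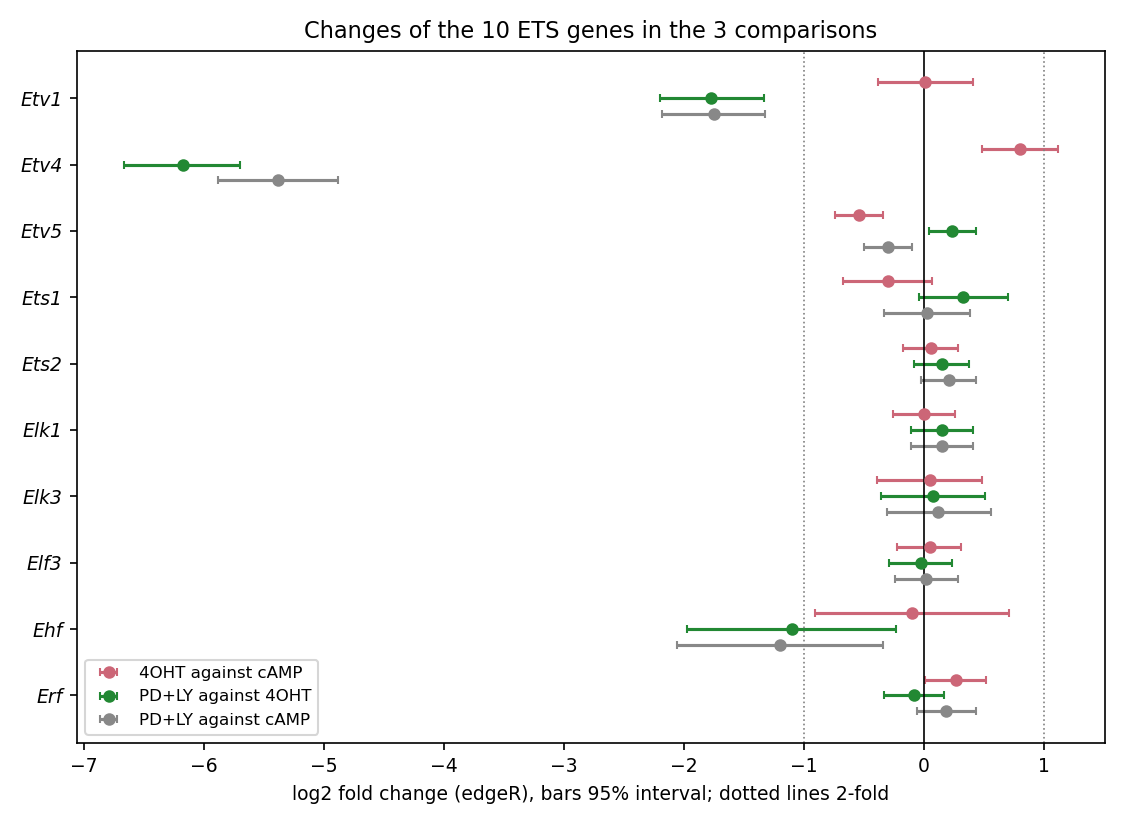
Log2 fold change of the 10 ETS genes in the 3 comparisons, as fitted by edgeR over 6 libraries. Bars are 95% intervals and dotted lines mark a 2-fold change. The Etv4 points for both PD+LY comparisons lie at -6.18 and -5.38, far left of all other members.

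Levels of different genes were compared per length, as counts per kilobase of merged exons scaled to the same sum in each library. On that scale Etv5 was the most abundant of the 10 genes in every group, with means of 418 in the cAMP group, 279 in the 4OHT group and 340 in the PD+LY group. Its mean over all libraries stood at the 97.6th percentile of tested genes. Elf3 followed at 201, 203 and 205, and Erf at 79.2, 93.0 and 90.5. In the cAMP group the order went on with Ets2 (34.3), Elk1 (27), Etv4 (23.4), Elk3 (9.4), Ets1 (7.18), Etv1 (4.04) and Ehf (1.65), and no neighbours in that order had overlapping libraries. Of the 10 genes, only Etv4 changed its place relative to the others between the groups. In the 4OHT group Etv4 stood at 39.7, above Ets2 at 34.9 and Elk1 at 26.4, again with no overlap between neighbours. In the PD+LY group it was the lowest of the 10 at 0.559, next to Ehf at 0.733, and the libraries of these last genes overlapped. The merged exons of Etv1 span 13.3 kb, against 3.1 kb for Etv4 and 4.1 kb for Etv5, which lowers its level per length.

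Within the PEA3 subfamily the makeup of the transcripts differed between the groups. Etv5 made up 93.9% and 93.8% of the summed per-length level of Etv1, Etv4 and Etv5 in the cAMP libraries, 86.3% and 86.6% in the 4OHT libraries, and 99.4% and 99.6% in the PD+LY libraries. Etv4 gave 5.21% and 5.30% in the cAMP libraries, 12.4% and 12.2% in the 4OHT libraries, and 0.209% and 0.121% in the PD+LY libraries. Duplicates lay much closer to each other than the groups did. Per length there were 18.0 and 17.7 Etv5 transcripts for each of Etv4 in the cAMP libraries, 6.96 and 7.10 in the 4OHT libraries, and 476 and 824 in the PD+LY libraries. The sum of the 3 genes was 475 and 416 in the cAMP libraries, 322 and 324 in the 4OHT libraries, and 332 and 352 in the PD+LY libraries. Most of the PEA3 pool was thus Etv5 in every group. Counted without regard to length, the share of Etv5 was 93.1%, 93.2%, 86.4%, 87.0%, 98.5% and 99.0% in the same order of libraries.

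**Figure D3:**
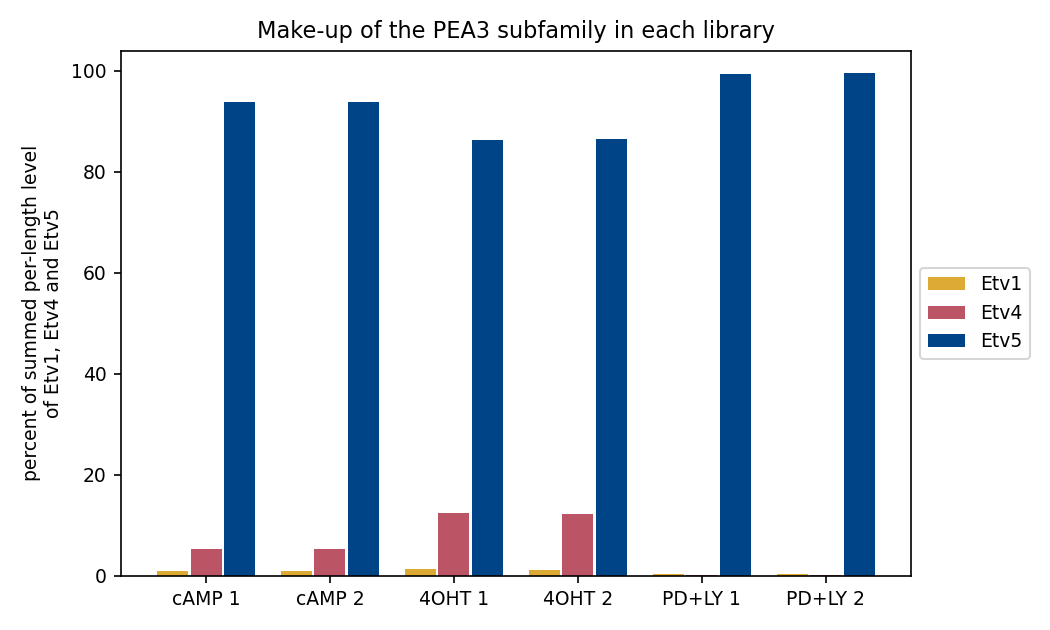
Share of Etv1, Etv4 and Etv5 in their summed per-length level, in percent, for each of the 6 libraries. Etv5 makes up over 86% in every library, and the Etv4 bar is tallest in the 4OHT libraries (12.4% and 12.2%) and below 1% in both PD+LY libraries.

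Etv4 (ENSMUSG00000017724.14, GRCm38 chr11:101769742-101785371, minus strand), a PEA3 factor known as an immediate readout of FGF and ERK signalling, changed the most of the 10 genes. It was measured at 22.1 and 20 CPM in the cAMP libraries, 36.8 and 36.6 CPM in the 4OHT libraries, and 0.611 and 0.389 CPM in the PD+LY libraries, the last resting on 12 and 8 counts. The groups did not overlap, and the order from low to high was PD+LY, cAMP and 4OHT. Under the inhibitors Etv4 fell by 6.18 on the log2 scale against 4OHT (SE 0.22, 95% interval -6.67 to -5.70, adjusted p = 2.98e-08), which was 72.7-fold. Against the cAMP group it fell by 5.38 on the log2 scale (SE 0.23, 95% interval -5.88 to -4.88, adjusted p = 5.51e-08), which was 41.7-fold. Among the 12224 tested genes that averaged 50 or more counts per library, its log2 fold change was the 2nd lowest against 4OHT and the 5th lowest against cAMP, so the level under the inhibitors was far below that of organoids whose Braf had never been activated. In bulk organoids, fewer cells of a type and less RNA per cell cannot be told apart.

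The rise of Etv4 with 4OHT was small beside that fall. It came to 0.80 on the log2 scale (SE 0.14, 95% interval 0.49 to 1.12, adjusted p = 0.0064), or 1.75-fold. This call was not met without cAMP 2 (0.74, adjusted p = 0.0538), without 4OHT 1 (0.80, adjusted p = 0.0837) or without 4OHT 2 (0.81, adjusted p = 0.0722), while both inhibitor comparisons kept theirs under every alternative tried.

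Etv1 (ENSMUSG00000004151.17, chr12:38779380-38870484, plus strand), the PEA3 factor known for its part in melanoma, prostate cancer and gastrointestinal stromal tumours, fell under the inhibitors but did not separate the 4OHT from the cAMP group. It was measured at 16.8 and 14.4 CPM in the cAMP libraries, 16.5 and 14.9 CPM in the 4OHT libraries, and 5.30 and 3.94 CPM in the PD+LY libraries. The cAMP and 4OHT libraries overlapped, and both PD+LY libraries lay below all others. Between 4OHT and cAMP the difference was 0.01 on the log2 scale (SE 0.18, 95% interval -0.38 to 0.41, adjusted p = 0.975). Etv1 fell by 1.77 on the log2 scale in PD+LY against 4OHT (SE 0.20, 95% interval -2.20 to -1.33, adjusted p = 0.000125), or 3.40-fold. Against cAMP it fell by 1.75 (SE 0.20, 95% interval -2.18 to -1.32, adjusted p = 7.5e-05), or 3.37-fold. Both falls were far smaller than those of Etv4, and their intervals did not meet.

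Etv5 (ENSMUSG00000013089.15, chr16:22381309-22439719, minus strand) is, like Etv4, a PEA3 factor that is also expressed in pluripotent stem cells. It went the other way from Etv4 in the 4OHT group and did not collapse under the inhibitors. It was measured at 526 and 469 CPM in the cAMP libraries, 339 and 343 CPM in the 4OHT libraries, and 385 and 424 CPM in the PD+LY libraries. The groups did not overlap, with the 4OHT libraries lowest and the PD+LY libraries between them and the cAMP libraries. Etv5 fell by 0.54 on the log2 scale with 4OHT (SE 0.09, 95% interval -0.74 to -0.34, adjusted p = 0.00467), or 1.46-fold. The difference between PD+LY and 4OHT was 0.24 (SE 0.09, 95% interval 0.04 to 0.44, adjusted p = 0.0755), and in PD+LY against cAMP the gene fell by 0.30 (SE 0.09, 95% interval -0.50 to -0.10, adjusted p = 0.0312), or 1.23-fold. The 3 PEA3 genes thus gave 3 different patterns over the same libraries.

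The calls for Etv5 lay near the limit, while its direction held in each comparison with any 1 library left out. The fall with 4OHT missed the limit without cAMP 1 (-0.46, adjusted p = 0.0517), without 4OHT 1 (-0.53, 0.0838) or without 4OHT 2 (-0.55, 0.0646), the difference between PD+LY and 4OHT met it without PD+LY 1 (0.31, 0.0281), and the fall against cAMP missed it without cAMP 1 (-0.21, 0.262), without PD+LY 1 (-0.23, 0.0793), or without 4OHT 1 or 4OHT 2 (both -0.29, 0.0764 and 0.0748).

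The promoters of Etv5 and Etv1 are printed because these genes of 1 subfamily took different courses, and because capicua is known to act on PEA3 genes through an octamer that opens with TGAATG. RefSeq start sites (GRCm38.p6, 250 bases before to 50 after the start) gave 9 promoters for 7 of the 10 genes, with no entry for Etv4, Ets1 and Ehf, which were not searched, and the entries for Etv5 and Etv1 follow, 5′ to 3′ on the strand of the gene, with TGAATG on either strand in capitals (its reverse complement reads CATTCA). They lie at chr16:22438319-22438618 for the downstream start of Etv5, chr16:22439521-22439820 for its upstream start, chr12:38779832-38780131 for the upstream start of Etv1 and chr12:38783461-38783760 for its downstream start.
Etv5 downstream start: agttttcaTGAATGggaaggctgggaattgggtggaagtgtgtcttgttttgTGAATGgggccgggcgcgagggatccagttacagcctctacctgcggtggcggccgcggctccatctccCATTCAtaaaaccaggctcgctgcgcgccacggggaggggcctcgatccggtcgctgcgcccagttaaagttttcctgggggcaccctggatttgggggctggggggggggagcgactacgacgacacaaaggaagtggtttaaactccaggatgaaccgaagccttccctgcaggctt
Etv5 upstream start: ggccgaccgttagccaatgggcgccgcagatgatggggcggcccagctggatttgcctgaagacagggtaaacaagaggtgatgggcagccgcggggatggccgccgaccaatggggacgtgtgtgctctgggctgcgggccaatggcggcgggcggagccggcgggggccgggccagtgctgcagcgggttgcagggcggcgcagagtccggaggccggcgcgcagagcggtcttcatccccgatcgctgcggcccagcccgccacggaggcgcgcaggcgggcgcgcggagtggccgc
Etv1 upstream start: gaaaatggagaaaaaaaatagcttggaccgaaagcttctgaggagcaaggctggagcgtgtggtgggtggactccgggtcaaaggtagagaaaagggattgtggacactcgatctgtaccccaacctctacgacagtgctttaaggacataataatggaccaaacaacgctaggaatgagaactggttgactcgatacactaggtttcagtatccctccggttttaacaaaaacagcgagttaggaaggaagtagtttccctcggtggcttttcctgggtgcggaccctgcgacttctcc
Etv1 downstream start: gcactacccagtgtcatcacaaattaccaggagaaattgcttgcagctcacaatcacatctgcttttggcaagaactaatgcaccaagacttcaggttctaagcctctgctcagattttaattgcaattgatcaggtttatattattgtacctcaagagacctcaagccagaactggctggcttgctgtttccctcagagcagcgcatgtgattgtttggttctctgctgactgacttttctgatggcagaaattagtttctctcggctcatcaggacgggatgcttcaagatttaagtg
The downstream promoter of Etv5 held TGAATG 3 times, at 242, 198 and 129 bases before the start, and each match went on to read TGAATGGG. The other 8 promoters held none. Only TGAATG, the first 6 letters of the octamer, was searched, and the last 2 letters of the matches were not compared with those of the octamer. Of 32851 RefSeq promoters of the same length, 12.7% held at least 1 match on either strand, and 0.17%, or 56 promoters, held 3 or more. The ETS core GGAA, searched on both strands, stood 6 times in the downstream and 0 times in the upstream promoter of Etv5, and 5 times and 1 time in the upstream and downstream promoters of Etv1, where 96.0% of all promoters held at least 1 and the median was 3. The stretch TGAATGGG at 242 bases before the downstream start of Etv5 shares its last 2 letters with a GGAA. These are matches of letters, and no binding was measured in these samples.

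Elk1 and Elk3, the ternary complex factors among the 10 genes, did not pass the test in any comparison. Elk1 (ENSMUSG00000009406.13, chrX:20933395-20950608, minus strand) was measured at 41.8 and 42.8 CPM in the cAMP libraries, 44.6 and 39.9 CPM in the 4OHT libraries, and 44.2 and 49.6 CPM in the PD+LY libraries. The PD+LY libraries lay above the cAMP libraries and overlapped the 4OHT libraries. The 95% interval of its log2 fold change was -0.26 to 0.26 for 4OHT against cAMP (adjusted p = 0.994) and -0.11 to 0.41 for PD+LY against 4OHT (adjusted p = 0.391). Its exons overlap those of Uxt on the same strand, so reads from that stretch cannot be assigned to either gene. Elk3 (ENSMUSG00000008398.15, chr10:93247414-93311135, minus strand), which represses its targets until ERK phosphorylates it, was measured at 11.5 and 13.4 CPM in the cAMP libraries, 13.7 and 12.1 CPM in the 4OHT libraries, and 16.1 and 11.1 CPM in the PD+LY libraries. All groups of Elk3 overlapped, and its 95% intervals were -0.39 to 0.49 for 4OHT against cAMP (adjusted p = 0.913), -0.36 to 0.51 for PD+LY against 4OHT (adjusted p = 0.817) and -0.31 to 0.56 for PD+LY against cAMP (adjusted p = 0.687). Part of its exons overlap Cdk17 on the other strand, which counting without strand does not separate.

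Ets1 and Ets2, the founding members of the family, also stayed within the limits. Ets1 (ENSMUSG00000032035.15, chr9:32636221-32757820, plus strand) was measured at 15.1 and 20.3 CPM in the cAMP libraries, 13.9 and 15 CPM in the 4OHT libraries, and 18.2 and 18.0 CPM in the PD+LY libraries. The 4OHT libraries lay below all others, but by less than the gap between the cAMP duplicates, and the log2 fold change was -0.30 against cAMP (SE 0.17, 95% interval -0.67 to 0.07, adjusted p = 0.313) and 0.33 for PD+LY against 4OHT (SE 0.17, 95% interval -0.04 to 0.70, adjusted p = 0.18). Ets2 (ENSMUSG00000022895.16, chr16:95702075-95721051, plus strand) was measured at 59.6 and 55.7 CPM in the cAMP libraries, 58.2 and 61.9 CPM in the 4OHT libraries, and 66.9 and 66.2 CPM in the PD+LY libraries. The PD+LY libraries were the highest, with a log2 fold change of 0.15 against 4OHT (SE 0.10, 95% interval -0.08 to 0.38, adjusted p = 0.329) and 0.21 against cAMP (SE 0.10, 95% interval -0.02 to 0.44, adjusted p = 0.166).

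Erf (ENSMUSG00000040857.15, chr7:25242561-25250761, minus strand), the ETS repressor under ERK control, was measured at 80.3 and 85.7 CPM in the cAMP libraries, 98.5 and 101 CPM in the 4OHT libraries, and 84.2 and 105 CPM in the PD+LY libraries. The 4OHT libraries lay above both cAMP libraries, and of the PD+LY libraries 1 lay between the cAMP libraries and 1 above all others. The log2 fold change was 0.27 for 4OHT against cAMP (SE 0.12, 95% interval 0.01 to 0.52, adjusted p = 0.185), -0.08 for PD+LY against 4OHT (SE 0.11, 95% interval -0.33 to 0.17, adjusted p = 0.66) and 0.19 for PD+LY against cAMP (SE 0.12, 95% interval -0.06 to 0.44, adjusted p = 0.257). The 4OHT difference met the limit at the same size of 0.27 when PD+LY 1 (adjusted p = 0.0443) or PD+LY 2 (0.047) was left out, or with the cAMP and 4OHT libraries alone (0.0415), and PD+LY against cAMP met it without PD+LY 1 (0.34, 0.0216).

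Of the epithelial ETS genes, Elf3 was abundant and even across the groups, and Ehf was low and lowest under the inhibitors. Elf3 (ENSMUSG00000003051.13, chr1:135253575-135258568, minus strand) was measured at 127 and 133 CPM in the cAMP libraries, 124 and 144 CPM in the 4OHT libraries, and 116 and 148 CPM in the PD+LY libraries. All its groups overlapped, and the 95% intervals were -0.22 to 0.31 for 4OHT against cAMP (adjusted p = 0.854), -0.29 to 0.24 for PD+LY against 4OHT (adjusted p = 0.908) and -0.24 to 0.29 for PD+LY against cAMP (adjusted p = 0.91). Gm26642 overlaps its exons on the other strand. Ehf (ENSMUSG00000012350.15, chr2:103263433-103303278, minus strand) was measured at 2.20 and 3.17 CPM in the cAMP libraries, 2.87 and 2.19 CPM in the 4OHT libraries, and 1.48 and 0.875 CPM in the PD+LY libraries, with 18 to 65 counts in each. The cAMP and 4OHT libraries overlapped (log2 fold change -0.10, 95% interval -0.91 to 0.71, adjusted p = 0.899), and both PD+LY libraries lay below them. Against cAMP, Ehf fell by 1.20 on the log2 scale under the inhibitors (SE 0.39, 95% interval -2.06 to -0.34, adjusted p = 0.0415), or 2.30-fold, while the difference from 4OHT was -1.10 (SE 0.40, 95% interval -1.97 to -0.23, adjusted p = 0.0669).

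The call for Ehf was not firm. It was missed by DESeq2 (adjusted p = 0.0768), with the cAMP and PD+LY libraries alone (0.0646), without cAMP 2 (-0.89, 0.27), without PD+LY 2 (-0.87, 0.176), and without 4OHT 1 or 4OHT 2 (both -1.19, 0.0636 and 0.0592), while the difference from 4OHT met the limit without PD+LY 1 (-1.52, 0.0467) and without a filter on low counts (-1.09, 0.0244). The 14 epithelial markers summed to 1414 and 1535 CPM in the cAMP libraries, 1103 and 1224 CPM in the 4OHT libraries, and 984 and 1034 CPM in the PD+LY libraries, with none at 0. In PD+LY against cAMP, 6 of the 14 fell past both limits and 0 rose, where 9.24% of all tested genes passed. The part of epithelial cells in the level of Ehf was not tested.

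The rest of the ETS family was set beside these genes to show how far the changes of Etv4 and Etv1 reached. Of 16 other ETS genes 14 could be tested, and 13 of 16 had at least 3 counts in every library. Spic and Fli1 passed both limits in at least 1 comparison, with Spic higher in all 3 and Fli1 lower than in cAMP in both other groups. No other ETS gene fell past both limits in PD+LY against 4OHT, where Etv4 and Etv1 did. The medians of the 14 on the log2 scale were -0.09 for 4OHT against cAMP, -0.23 for PD+LY against 4OHT, and -0.33 when PD+LY was set against cAMP. On the adjusted p alone, 2, 4 and 4 of 14 were higher and 1, 0 and 2 lower in the same order. Of all tested genes, 4.04%, 10.7% and 12.1% were higher and 4.35%, 12.1% and 13.7% lower. The shares of all tested genes past both limits were 2.67%, 7.26% and 9.24%.

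Spic, an ETS factor of the Spi branch studied in macrophages and also found in embryonic stem cells, went opposite to Etv4 under the inhibitors. It was measured at 2.52 and 1.95 CPM in the cAMP libraries, 5.00 and 5.43 CPM in the 4OHT libraries, and 15.7 and 16.6 CPM in the PD+LY libraries. It rose in each step, by 1.24 on the log2 scale for 4OHT against cAMP (SE 0.23, adjusted p = 0.00792) and by 1.63 for PD+LY against 4OHT (SE 0.20, adjusted p = 0.000206), and stood 7.30-fold higher in PD+LY than in cAMP. The first rise was missed without cAMP 2 (1.06, 0.0647), without 4OHT 1 (1.30, 0.0564) or without 4OHT 2 (1.18, 0.0729). The leukocyte and macrophage markers Ptprc, Adgre1 and C1qa had 0 counts in all 6 libraries, and the 8 macrophage markers together summed to 66.7 and 69.0 CPM in the cAMP libraries, 57.8 and 65.1 CPM in the 4OHT libraries, and 31.9 and 33.8 CPM in the PD+LY libraries. Nearly all of that sum was Cd68, at 63.6 and 66.2, 56.2 and 61.3, and 30.8 and 32.6 CPM in the same order. Csf1r had 13 to 26 counts in each library, and Tyrobp and Fcer1g had 0 to 7. Lyz2 had 30 and 23 counts in the cAMP libraries, 9 and 30 in the 4OHT libraries, and 0 and 4 in the PD+LY libraries. It fell past both limits in PD+LY against 4OHT (-3.44, adjusted p = 0.0185) and against cAMP (-3.82, adjusted p = 0.00806). Spi1, the macrophage master factor of the same branch, had 4 to 8 counts in each cAMP and 4OHT library and 0 in both PD+LY libraries, which made it at least 4.84-fold lower than in 4OHT when 3 counts over the group are taken as the limit.

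Fli1, an ETS factor of blood vessels and blood, had 11 and 25 counts in the cAMP libraries, 0 and 2 in the 4OHT libraries, and 2 and 0 in the PD+LY libraries. The level in cAMP was 16.4 times that in 4OHT (95% counting interval 4.23 to 141, adjusted p = 0.0401) and 19.9 times that in PD+LY (5.11 to 170, adjusted p = 0.0116). The first call was missed without cAMP 1 (adjusted p = 0.0894), cAMP 2 (0.219), 4OHT 1 (0.281) or 4OHT 2 (0.141), DESeq2 gave no adjusted p for it, and the other call without cAMP 2 (0.111) or PD+LY 2 (0.0749). Endothelial markers moved with it in part. Of the 11 tested, 5 fell past both limits in 4OHT against cAMP, where 2.67% of all tested genes passed. Again 5 fell when PD+LY was set against cAMP, where 9.24% of all tested genes passed. Pecam1 was higher in 4OHT than in cAMP on the adjusted p alone (0.36, SE 0.09, adjusted p = 0.0271). The median marker stood at 9.15 and 8.14 CPM in the cAMP libraries, 3.67 and 4.22 CPM in the 4OHT libraries and 5.25 and 3.74 CPM in the PD+LY libraries. Their summed level, 264 and 270 CPM in the cAMP libraries, 273 and 278 CPM in the 4OHT libraries and 236 and 235 CPM in the PD+LY libraries, was mostly Pecam1 and Egfl7. Emcn alone of the 12 was at 0 in a library, and the part of these cells in the level of Fli1 was not tested.

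**Figure D4:**
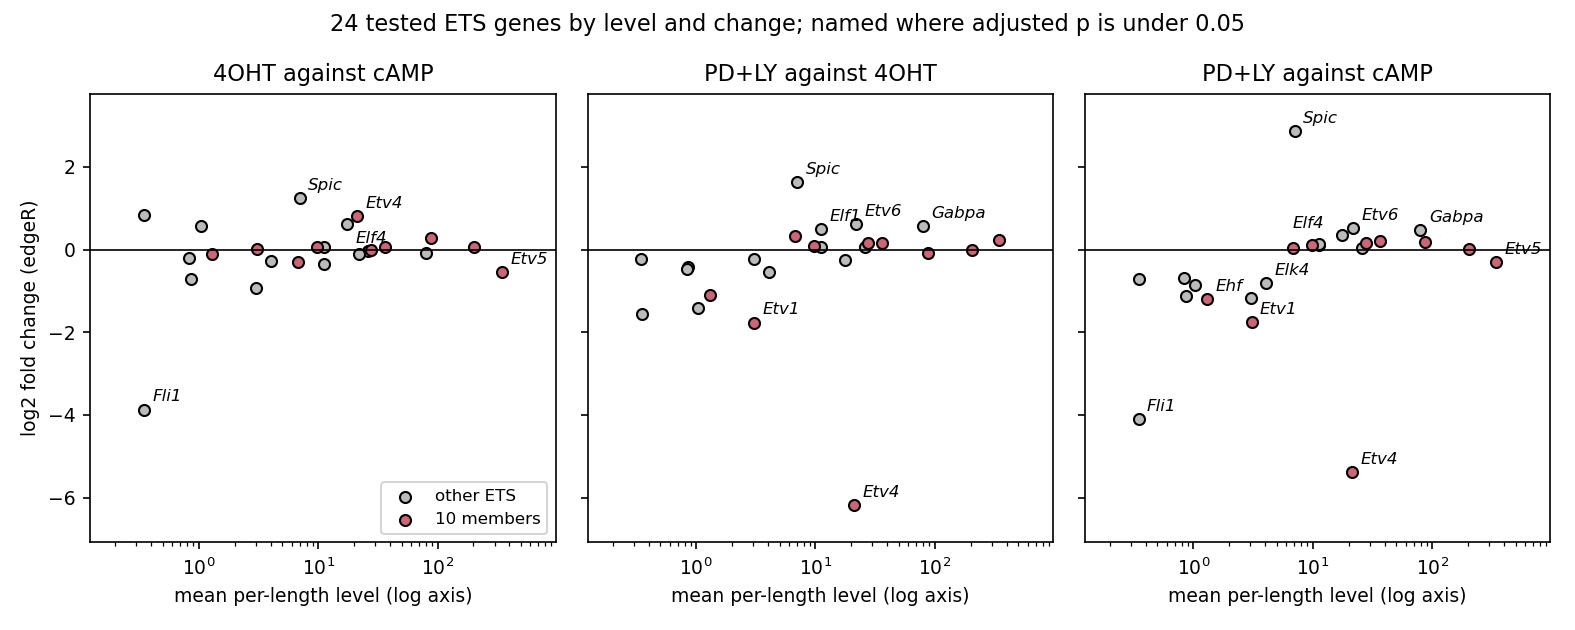
Log2 fold change (edgeR) of the 24 tested ETS genes against their mean per-length level over 6 libraries, on a log axis, in the 3 comparisons. Red points are the 10 genes and grey points the other ETS genes, named where the adjusted p was under 0.05. Etv4 is the lowest point in both PD+LY panels, Etv5 the rightmost point in all of them, and Spic the highest point in all of them.

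Etv4 and Etv1 fell together with other genes of RAS-ERK output. The list held Dusp4 and Dusp6, phosphatases that switch ERK off, Spry2 and Spry4, Sprouty inhibitors of receptor signalling, Phlda1, the cyclin gene Ccnd1, and the ephrin receptor genes Epha2 and Epha4. In PD+LY against 4OHT, 5 of 8 fell past both limits, where 7.26% of all tested genes passed. For the counts below, that share was 9.24% in PD+LY against cAMP and 2.67% in 4OHT against cAMP. Spry4 fell by 6.33, Dusp4 by 3.92, Dusp6 by 2.45, Phlda1 by 2.04 and Ccnd1 by 1.66 on the log2 scale, and the list's median was -1.85. Spry4 held 316 and 367 counts in the 4OHT libraries and 5 in each PD+LY library, which placed it beside Etv4. In PD+LY against cAMP, 6 of 8 fell past both limits and 1 rose, Epha4, by 1.06 (SE 0.14, adjusted p = 0.000209). In 4OHT against cAMP, 0 of 8 passed both limits by edgeR and 0 by DESeq2, with 5 at an unadjusted p under 0.05, and the median was -0.04. Dusp6, at 46.5 and 47.6 CPM in the cAMP libraries and 27.6 and 29.3 CPM in the 4OHT libraries, was lower by the adjusted p alone (-0.72, SE 0.12, adjusted p = 0.00489). Dusp6 thus moved with 4OHT in the direction of Etv5 and opposite to Etv4.

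**Figure D5:**
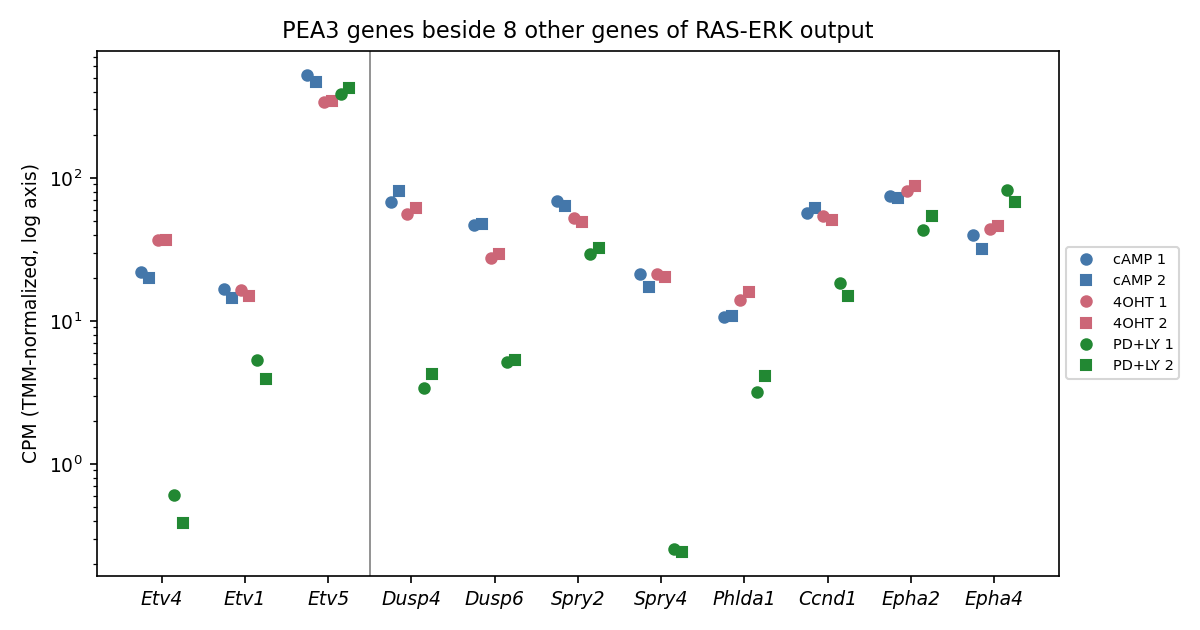
TMM-normalized CPM of Etv4, Etv1 and Etv5 beside the 8 other genes of RAS-ERK output, on a log axis, with circles for replicate 1 and squares for replicate 2. In the PD+LY libraries Etv4 (0.611 and 0.389 CPM) and Spry4 (0.255 and 0.243 CPM) lie lowest, while Etv5 stays above 300 CPM in every library.

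Several immediate early genes, which the ternary complex factors serve, fell under the inhibitors, while the transcripts of Elk1 and Elk3 did not pass the test. Elk4, a ternary complex factor among the other ETS genes, was lower in PD+LY against cAMP on the adjusted p alone (-0.82, SE 0.21, adjusted p = 0.0141). This call was not kept under every alternative, and Elk4 did not pass in PD+LY against 4OHT (-0.54, adjusted p = 0.0893). On the log2 scale, the medians of the 9 genes listed were 0.16 for 4OHT against cAMP, -1.28 for PD+LY against 4OHT, and -1.12 when PD+LY was set against cAMP. In PD+LY against 4OHT, 5 of the 9 passed both limits and were lower. On the adjusted p alone 6 were lower and 1 was higher, Dusp1 (0.56, SE 0.10, adjusted p = 0.00292), where 12.1% of all genes were lower and 10.7% higher. Egr1 fell by 3.32 (adjusted p = 1.77e-05), Fosb by 2.76 (adjusted p = 0.00813), Fos by 1.28 (adjusted p = 0.00248) and Junb by 1.13 (adjusted p = 0.00315) on the log2 scale. Egr3 had 45 counts over the 4OHT libraries and 0 in the PD+LY libraries, and was at least 18.2-fold lower. Fosb missed the limit without 4OHT 1 (adjusted p = 0.0526) or 4OHT 2 (0.0542). In 4OHT against cAMP, 1 of 9 rose past both limits, Junb, by 1.01 (SE 0.21, adjusted p = 0.014), a call that was missed without cAMP 1 (0.67, 0.0738), 4OHT 1 (1.10, 0.0764) or 4OHT 2 (0.93, 0.121). In PD+LY against cAMP, 3 of 9 fell past both limits, Egr1, Egr3 and Fos, of which Egr3 missed the limit without cAMP 2 (adjusted p = 0.101), PD+LY 1 (0.0514) or PD+LY 2 (0.0593).

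Regulators and partners of the ETS factors did not change by as much as 2-fold. The list held the repressor gene Cic, the genes Cop1 and Det1 of a ubiquitin ligase that degrades PEA3 proteins, serum response factor (Srf) with its coactivators Mrtfa and Mrtfb, and Mapk3, the gene of a kinase of the ERK cascade. Of these 7, 0 passed both limits by edgeR or DESeq2 in any comparison, with 2 at an unadjusted p under 0.05 in each. On the adjusted p alone, Cic, Mrtfb and Mrtfa passed in at least 1 comparison, and they are named after their values were seen. Mrtfb was higher in PD+LY than in 4OHT (0.67, SE 0.13, adjusted p = 0.004) and Mrtfa higher in PD+LY than in cAMP (0.44, SE 0.14, adjusted p = 0.0389). Cic, which encodes the capicua repressor of PEA3 genes, was measured at 183 and 190 CPM in the cAMP libraries, 255 and 238 CPM in the 4OHT libraries, and 226 and 280 CPM in the PD+LY libraries, and was higher by the adjusted p alone in 4OHT against cAMP (0.41, SE 0.11, adjusted p = 0.0391) and also in PD+LY against cAMP (0.45, SE 0.11, adjusted p = 0.0102). Its transcript level did not separate 4OHT from PD+LY (0.04, SE 0.11, adjusted p = 0.823), and the part of capicua in the level of Etv4 was not tested.

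The genes whose pattern over the 6 libraries was nearest to each PEA3 gene were found among 12224 genes, by the distance between log2 CPM profiles centred on the gene's own mean, so that a small distance means like changes of like size. For Etv4 they were Spry4 (distance 0.853), the surfactant protein gene Sftpb (1.66) and Crhbp (1.77), the gene of a binding protein of corticotropin-releasing hormone. Sftpb and Crhbp fell by 4.34 and 4.62 on the log2 scale in PD+LY against 4OHT, less than Etv4, while Spry4 fell by 6.33. For Etv1 they were the receptor phosphatase gene Ptprv (0.193), the angiopoietin gene Angpt2 (0.277) and the ubiquitin ligase gene Trim63 (0.301). For Etv5 they were Rps6ka2 (0.105), which encodes a ribosomal S6 kinase that ERK activates, the heterochromatin protein gene Cbx1 (0.145) and the mitochondrial transhydrogenase gene Nnt (0.146). No PEA3 gene was among the nearest genes of another. With 2 libraries per group such likeness describes these 6 libraries and carries no test.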

How the data were processed

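Bulk mRNA-seq was performed by the authors on 6 organoid libraries, with at least 3 wells pooled in each. The authors removed adapters and poor bases with Trimmomatic, aligned the read pairs to mm10 (GRCm38) by HISAT2 and counted them per gene by HTSeq without strand, although the library kit was stranded. The versions of HISAT2 and HTSeq and the annotation are not given in the sources used here. The deposited file holds these raw counts for 25239 genes, of which 5586 had no count.

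Groups were taken from the sample labels. Genes were filtered with filterByExpr (minimum count 10, minimum total 15), which left 15256, scaled with TMM and tested with edgeR 4.0.16 (quasi-likelihood, all 6 libraries, R 4.3.3). Benjamini-Hochberg adjustment ran over the whole set of tested genes. The SE of a log2 fold change was taken from its F statistic. The common biological coefficient of variation was 0.105. Levels per length used merged exons of the GENCODE GRCm38 annotation for the 24374 symbols found in it. The test of 4OHT against cAMP was tried on simulated data with the same spread for every gene. The comparisons with PD+LY were not tried in this way. An exact permutation test of 2 libraries against 2 cannot go below p = 0.3333, so none was used. Intervals from counts cover counting error only.

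The genes, lists and tests were chosen with earlier results of these data known. The genes named were the 10 ETS factors, other ETS and listed pathway genes past both limits, and the 3 nearest genes by profile (log2 of CPM + 0.1, mean of at least 50 counts). Spi1, Elk4, Dusp1, Dusp6, regulators past the adjusted p alone and single markers were named after their values were seen. Alternatives were DESeq2 1.42.0, other scalings and filters, only the groups compared, a replicate block and each library left out, where a lone library was assumed to vary like the others. A gene of the list of regulators is not reported here.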

Additional observations from a re-analysis of the deposited data

How the results depend on the processing

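Over 13 alternatives, the 10 ETS genes gave 390 values, of which 341 kept their direction and their side of the 0.05 limit, 17 lost the limit, 10 gained it and 22 changed sign. Every Etv4 and Etv1 value for PD+LY kept its direction and call, with Etv4 at -6.53 to -5.89 against 4OHT and -5.73 to -5.09 against cAMP, and Etv1 at -1.99 to -1.57 and -1.98 to -1.55 (log2 fold changes). The values that changed sign lay between -0.22 and 0.20, and none passed the limit. With 1 library left out, 4OHT against cAMP ran from -0.09 to 0.13 for Etv1, -0.08 to 0.08 for Elk1, -0.05 to 0.17 for Elk3, -0.06 to 0.16 for Elf3 and -0.33 to 0.20 for Ehf. PD+LY against 4OHT ran from -0.22 to 0.32 for Elk3, -0.21 to 0.14 for Elf3 and -0.25 to 0.07 for Erf, and PD+LY against cAMP from -0.16 to 0.27 for Ets1, -0.17 to 0.37 for Elk3 and -0.16 to 0.19 for Elf3. Elk1 in 4OHT against cAMP was 0.00 with DESeq2, with RLE size factors and with only the 2 groups, and 0.01 with library size alone.

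Genes past both limits numbered 408 for 4OHT against cAMP, 1107 when PD+LY was set against 4OHT and 1409 when it was set against cAMP. On the adjusted p alone they numbered 1280, 3469 and 3925, and leaving out 1 library gave ranges of 164 to 487, 632 to 1176 and 1118 to 1391, lowest without 4OHT 1, 4OHT 2 and cAMP 2. DESeq2 called 369, 974 and 1250.

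Same-numbered deviations correlated at 0.0718 for cAMP and 4OHT, 0.207 for cAMP and PD+LY and 0.0586 for 4OHT and PD+LY. With 2 libraries per group, whether the replicate numbers in the labels pair the samples cannot be told. With the replicate number as a block, 513, 1222 and 1481 genes passed both limits, and in PD+LY against 4OHT the adjusted p of Etv5 became 0.0353 (0.24) and that of Ehf 0.0463 (-1.10). The 2 libraries per group limit all values, and PD+LY counts of 12 and 8 limit the size of the fall of Etv4.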
